A study of Homo sapiens with 4 samples.

Results

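The genes described here encode the machinery that licenses, fires and copies from DNA replication origins. They are 51 gene symbols, grouped by function and found by an exact match of the symbol in the first column of the count table. All 51 were present among its 56638 rows, and all 51 passed the expression filter that left 14018 genes for testing. RNA came from MV4;11, a human line of acute myeloid leukaemia with a KMT2A-AFF1 fusion gene and an activating internal tandem duplication in FLT3. Parental cells received either the small molecule CU-T12-9, which activates the receptor TLR2 together with TLR1, at 1 µg/mL (2 libraries), or vehicle (2 libraries), in each case for 24 h. The vehicle is DMSO on the sample labels and PBS in the treatment protocol, and the vehicle libraries are called DMSO here. Both groups are the same single cell line. Whether the paired libraries of each group were separate cultures is not stated on the labels, so a p-value here reflects the spread among these samples alone, and that spread may be technical.

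Origins are prepared in G1 phase, when the origin recognition complex ORC, with CDC6 and CDT1, loads the MCM2-7 helicase onto DNA. At the G1 to S transition, CDK2 with cyclin E and the kinase CDC7 with DBF4 convert the loaded helicase into an active one by adding CDC45 and the GINS complex. Polymerase alpha-primase then starts each new strand, the clamp loader RFC places the PCNA ring, polymerases delta and epsilon extend, and FEN1 and LIG1 join the lagging-strand pieces. Many of these genes are textbook targets of E2F transcription factors and peak in transcript level around the G1 to S transition, while some ORC and RPA subunits are expressed more evenly through the cycle.

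The libraries held 25867733 and 23892934 counted reads for DMSO and 23201117 and 23087102 for CU-T12-9, and each member had between 139 and 26096 reads in a library. Levels are given as CPM, the usual depth-scaled read count, here with TMM-adjusted library sizes, in which a single read is worth 0.0384 to 0.0442 CPM. Of 10 myeloid leukaemia markers 9 were at 1 CPM or more in every library, the other being MPO, and their summed level, most of it LYZ, was 3193 to 3276 CPM under DMSO and 2305 to 2442 CPM under CU-T12-9. Within that sum the markers moved in opposite directions. The libraries of CU-T12-9 were above those of DMSO for PTPRC (176 and 190 against 75 and 74.4 CPM), SPI1 (260 and 298 against 179 and 182), ITGAM (11.6 and 11.2 against 2.84 and 2.59) and CEBPA. They were below for the granule genes ELANE (30.1 and 36.9 against 234 and 232 CPM) and MPO (0.214 and 0.221 against 5.76 and 6.47) and for LYZ, FLT3, CD33 and CSF3R. The part of these shifts in the results on replication genes was not tested. Of 8 T and NK cell markers 5 had any read, with CD3D, CD3G and CD2 at 0 and sums of 15.2 to 15.8 and 29.6 to 31.1 CPM in the respective groups, nearly all of it NKG7. All 5 B cell markers had reads, at sums of 1.09 to 1.73 and 1.71 to 1.9 CPM. Of 7 erythroid and megakaryocyte markers ITGA2B alone had reads (6.64 to 6.91 and 4.92 to 5.48 CPM). Of 7 stromal and epithelial markers 5 had reads, with EPCAM and PECAM1 at 0 and sums of 5.45 to 6.26 and 4.38 to 4.7 CPM.

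Under CU-T12-9 nearly the whole replication machinery was lower. The 51 genes together took 0.77% and 0.761% of all counted reads in the DMSO libraries and 0.233% and 0.225% in the CU-T12-9 libraries, so that the group means, 0.765 ± 0.00619% and 0.229 ± 0.0056% (SD, n = 2 each), stood 3.34-fold apart. The quasi-likelihood F-test of edgeR, with Benjamini-Hochberg adjusted p-values over all genes, called 49 of the 51 genes lower, where 33.2% of all tested genes were called lower. The other two, ORC2 and ORC4, were not called. The median log2 fold change was -1.77, against 0.00 over all genes tested. Since so many genes were called, a second rule asked for a fall of more than 2-fold (edgeR glmTreat with the same adjustment), which 5.55% of all tested genes met and 42 of the 51 replication genes met. Against a fold of 1.5 these numbers were 12.0% and 46 of 51. Both DMSO libraries lay above both CU-T12-9 libraries in 49 of the 51, against 41.7% of all tested genes. By size of change, 39 of the 51 were among the lowest 5% of tested genes and 48 among the lowest 25%. In bulk RNA, fewer cells in S phase and less of each transcript per cell cannot be told apart.

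**Figure D1:**
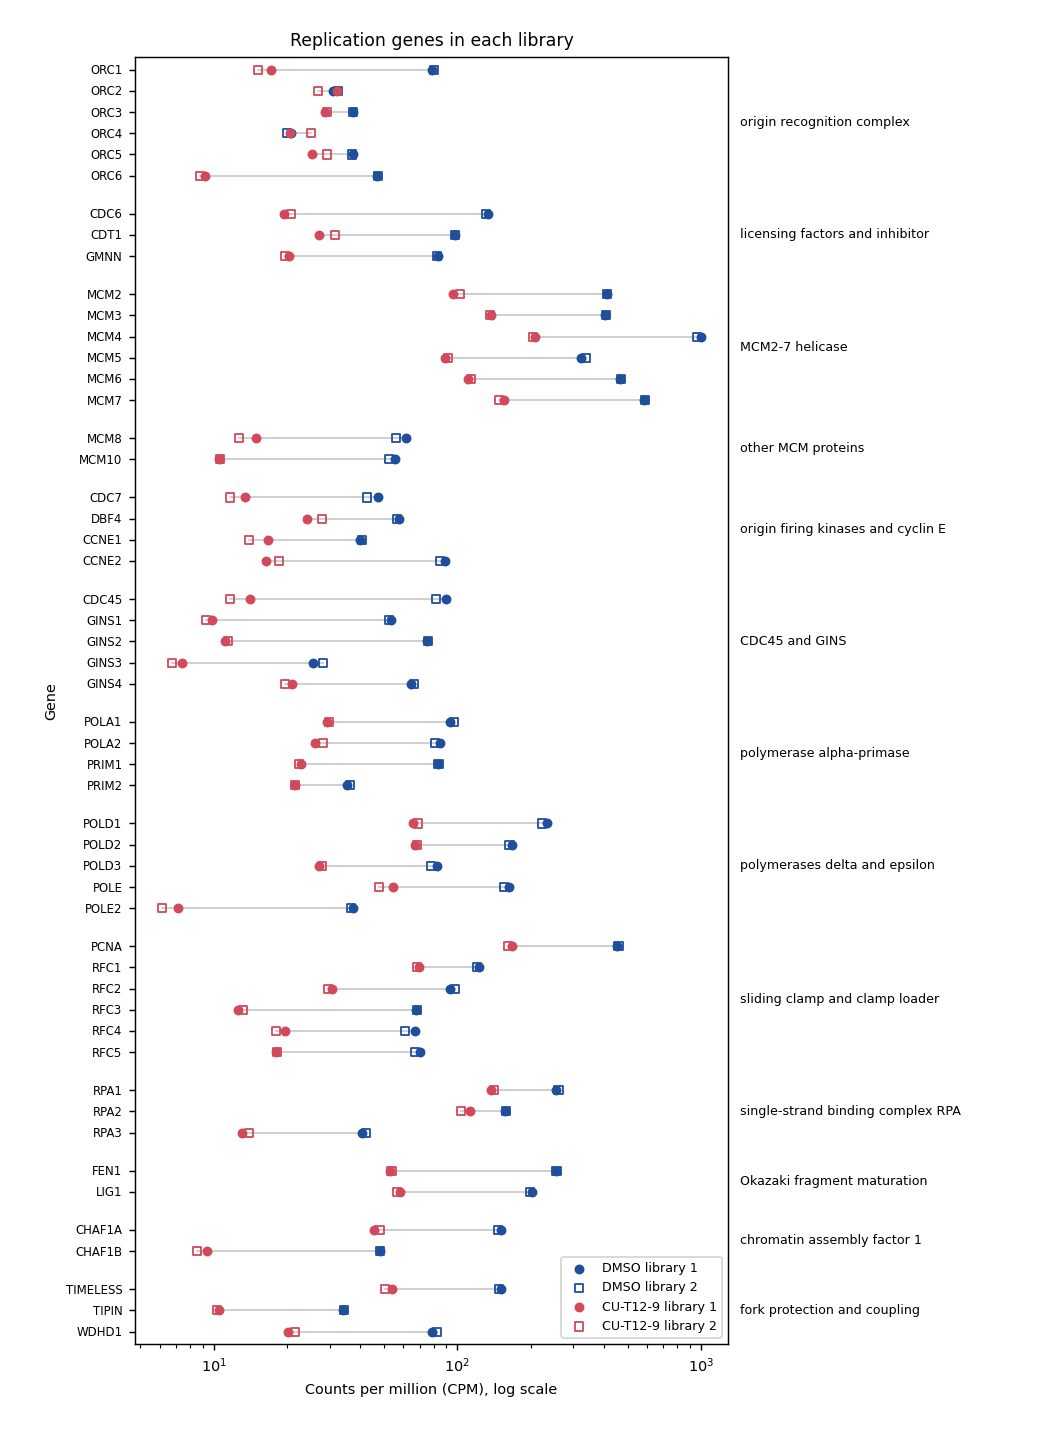
CPM (log axis) of each of the 51 replication genes in the 2 DMSO libraries (blue) and the 2 CU-T12-9 libraries (red), grouped by role. The groups stand apart in all rows but ORC2 and ORC4, and the gap is small in ORC3, ORC5 and RPA2.

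Members that moved together invite a look at their promoters. RefSeq promoter windows (GRCh38.p14, 250 bases before to 50 after each start site) were at hand for 44 of the 51 genes, 9 of them with more than 1 window, and were searched on both strands for the E2F words TTTCCCGC, TTTCGCGC, TTTGCCGC and TTTGGCGC. At least 1 word was present in 21 of the 44 genes, or 47.7%. The same search found a word in 3.99% of all 27305 genes of the promoter table, in 6.68% of the 9341 tested genes found there, and in 12.1% of the 512 non-member genes there that were lower by more than 2-fold. GC content, on which such counts depend, had a median of 64.9% in the replication gene windows, against 64.7% over the tested genes and 58.3% over all genes. It was not measured for the 512 non-member genes, so the part of GC content in their counts, here and below, was not tested. The 100 bases before the start site are printed for 8 genes that hold an E2F word there, from different steps of replication, and for CDC45 and ORC4, which hold none of these words. Where a gene had several start sites, the window with the most words in these bases was printed. For GMNN and CDC7 this was the second window, and the first held none of these words. The words are in capitals and each strand is read 5′ to 3′ in the direction of the gene.
MCM6: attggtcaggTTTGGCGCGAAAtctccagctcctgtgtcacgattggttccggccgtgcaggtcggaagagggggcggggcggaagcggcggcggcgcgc
GINS2: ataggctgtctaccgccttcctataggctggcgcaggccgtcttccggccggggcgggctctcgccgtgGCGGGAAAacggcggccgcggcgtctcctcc
RFC3: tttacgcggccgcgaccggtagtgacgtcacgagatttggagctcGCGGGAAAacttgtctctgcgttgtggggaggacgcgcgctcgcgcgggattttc
CDT1: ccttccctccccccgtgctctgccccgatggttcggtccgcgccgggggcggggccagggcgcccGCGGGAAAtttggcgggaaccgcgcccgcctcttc
GMNN: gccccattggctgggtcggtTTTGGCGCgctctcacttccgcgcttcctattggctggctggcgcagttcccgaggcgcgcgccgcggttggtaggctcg
CDC7: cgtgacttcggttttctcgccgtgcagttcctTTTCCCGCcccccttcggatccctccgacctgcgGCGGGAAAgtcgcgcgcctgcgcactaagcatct
PCNA: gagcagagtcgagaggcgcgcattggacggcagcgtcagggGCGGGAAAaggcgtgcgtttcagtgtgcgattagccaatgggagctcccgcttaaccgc
POLA2: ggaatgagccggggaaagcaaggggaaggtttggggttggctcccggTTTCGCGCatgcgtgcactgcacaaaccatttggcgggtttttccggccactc
CDC45: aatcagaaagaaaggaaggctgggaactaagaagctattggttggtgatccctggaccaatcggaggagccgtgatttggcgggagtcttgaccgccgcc
ORC4: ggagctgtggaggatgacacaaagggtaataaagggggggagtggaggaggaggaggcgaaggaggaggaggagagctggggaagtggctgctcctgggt

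On GRCh38.p14 these windows are chr2:135876444-135876543 (minus strand) for MCM6, chr16:85688955-85689054 (minus) for GINS2, chr13:33818049-33818148 (plus) for RFC3 and chr16:88803689-88803788 (plus) for CDT1. GMNN lies at chr6:24775313-24775412 (plus), CDC7 at chr1:91501012-91501111 (plus), PCNA at chr20:5126623-5126722 (minus) and POLA2 at chr11:65261862-65261961 (plus). The CDC45 window is chr22:19479820-19479919 (plus) and that of ORC4 chr2:148021552-148021651 (minus). In MCM6 a pair of words on opposite strands overlaps to form a single run, beginning 90 bases before the start, and the 300-base window holds a second such pair farther upstream. In CDC7 a word on each strand begins 68 and 34 bases before the start. The word begins 31 bases before the start in GINS2, 35 in CDT1, 53 in POLA2, 55 in RFC3, 59 in PCNA and 80 in GMNN.

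**Figure D2:**
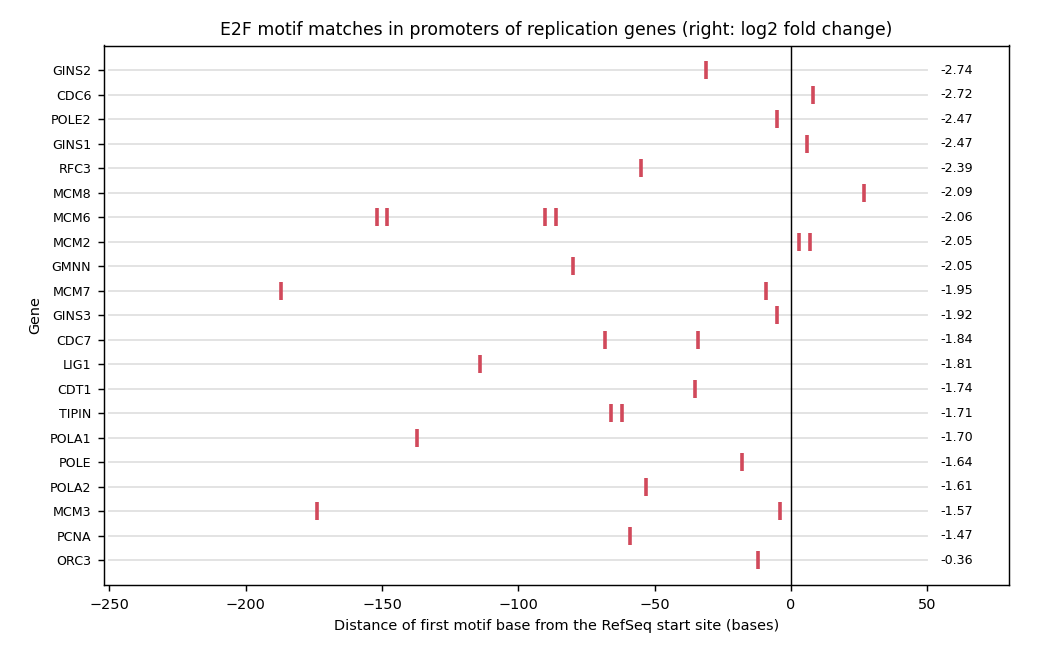
Position of each E2F word (red ticks) in the promoter windows of the 21 replication genes that hold one, in bases from the RefSeq start site, with genes ordered by log2 fold change (printed at right). Of the 29 matches, 22 begin between base -100 and base 10, a share that was not computed for other promoters. Overlapping words on opposite strands count as separate matches. For GMNN, CDC7 and TIPIN the matches lie in the second window.

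Genes with and without an E2F word both fell. The 21 genes with an E2F word had a median log2 fold change of -1.92 and the 23 genes without had -1.67. ORC3 holds a word and fell little, whereas CDC45 fell 6.65-fold without one of these words. With the further words TTTGGCGG and TTCCCGCC, added after the CDC45 promoter had been seen, 28 of the 44 genes (63.6%) had a match, against 7.39% of all genes, 12.3% of tested genes and 19.9% of the non-member genes lower by more than 2-fold. CDC45, MCM10, PRIM1, RFC1, RFC2, RFC4 and CHAF1A entered with these words. The CCAAT box, bound by NF-Y, was present in 25 of 44 genes (56.8%), against 43.3% of tested genes and 51.2% of the non-member genes lower by more than 2-fold. The cell cycle homology word TTTGAA, known from promoters of mitotic genes, was present in 1 of 44, DBF4 (2.27%), against 13.7% of tested genes and 25% of the non-member genes lower by more than 2-fold. A match is a description of letters, not of binding.

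The origin recognition complex, the ATPase that marks origins, split in its subunits. ORC1, the subunit whose level varies with the cell cycle in human cells, had 78.5 and 80.3 CPM under DMSO and 17.2 and 15.2 CPM under CU-T12-9, a 4.89-fold fall (log2 fold change -2.29, SE 0.07; edgeR quasi-likelihood adjusted p = 1.44e-08). ORC6, the smallest subunit, had 47 and 47.3 CPM under DMSO and 9.19 and 8.8 CPM under CU-T12-9, and fell 5.24-fold. Both stood far outside the range of the DMSO libraries.

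The core subunits ORC2 to ORC5 moved little. ORC2 had 30.7 and 32.5 CPM under DMSO and 32 and 26.9 CPM under CU-T12-9, and the groups overlapped (log2 fold change -0.10, SE 0.09; edgeR adjusted p = 0.356). ORC4 had 20.7 and 19.9 CPM under DMSO and 20.6 and 25.1 CPM under CU-T12-9, again overlapping (0.17, SE 0.10; edgeR adjusted p = 0.182). The CU-T12-9 libraries disagreed on both genes. Without the first of them the log2 fold change was 0.34 for ORC4 and -0.20 for ORC2, and edgeR called both. Without the second it was 0.0165 for ORC4 and 0.0167 for ORC2, and neither was called. Each of these fits leaves 1 CU-T12-9 library and so holds no spread of that group. ORC3 fell from 37.2 and 37.2 to 28.6 and 29.2 CPM and ORC5 from 37.4 and 36.8 to 25.3 and 29.3 CPM, falls of 1.29-fold and 1.36-fold. Exons of ORC2 and ORC4 overlap genes on the opposite strand in GENCODE 29, so their counts are uncertain to that extent.

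Reads of 1 subunit per read of another do not depend on how libraries are scaled. There were 2.55 and 2.47 ORC1 reads per ORC2 read in the DMSO libraries and 0.539 and 0.567 in the CU-T12-9 libraries. ORC6 reads per ORC2 read went from 1.53 and 1.46 to 0.287 and 0.327. The log2 fold change of ORC1 minus that of ORC2 was -2.19 (SE 0.12). The pairs of subunits compared in this way were picked after their values were seen and carry no test, and 2 against 2 libraries allow no exact two-sided permutation p below 0.333.

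Among the licensing factors the helicase loader CDC6 fell most. It had 134 and 131 CPM under DMSO and 19.4 and 20.8 CPM under CU-T12-9, a 6.59-fold fall (log2 fold change -2.72, SE 0.06; edgeR adjusted p = 2.71e-09). CDT1, which brings the helicase to ORC, had 98.2 and 97.9 CPM under DMSO and 27.2 and 31.4 CPM under CU-T12-9, a 3.35-fold fall. GMNN encodes geminin, the inhibitor that keeps CDT1 from loading more helicase after S phase has begun. It fell 4.13-fold, from 83 and 82.5 to 20.4 and 19.7 CPM. Factor and inhibitor thus both fell, with 0.845 and 0.843 GMNN reads per CDT1 read under DMSO and 0.751 and 0.627 under CU-T12-9.

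All 6 subunits of the MCM2-7 helicase ring fell, between 2.96-fold and 4.76-fold, and together they took more reads than any other group of the machinery, namely 0.322% and 0.319% of the DMSO library totals and 0.0804% and 0.0781% of the CU-T12-9 totals. MCM4 fell most, from 1002 and 967 CPM to 209 and 205 CPM (log2 fold change -2.25, SE 0.05; edgeR adjusted p = 2.56e-09). MCM3 fell least, from 406 and 407 to 138 and 136 CPM (-1.57, SE 0.05; edgeR adjusted p = 1.07e-08). Between these lay MCM5, MCM7, MCM2 and MCM6 at -1.87, -1.95, -2.05 and -2.06 (SE 0.05 each).

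Per kilobase of the principal GENCODE 29 transcript, MCM4 and MCM7 had the highest helicase levels under DMSO, at 235 ± 5.87 and 199 ± 2.48 CPM per kb (SD, n = 2). MCM3, MCM6 and MCM2 followed at 127 ± 0.141, 125 ± 0.389 and 114 ± 0.288, and MCM5 was lowest at 93.4 ± 2.57 CPM per kb. Under CU-T12-9 the 6 levels were 25.5 to 51.4 CPM per kb and MCM7 and MCM4, at 51.4 ± 1.66 and 49.4 ± 0.714, were nearly level. These lengths come from another annotation than the counts, so the order of nearby levels is approximate.

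MCM10 and MCM8 are not part of the ring. MCM10, which acts when the loaded helicase starts to unwind, fell 5.13-fold, from 55.6 and 52.5 to 10.5 and 10.6 CPM. MCM8, a paralog with roles in recombination, fell 4.25-fold, from 61.5 and 56.2 to 14.9 and 12.7 CPM.

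The firing factors differed within pairs. The kinase gene CDC7 fell 3.58-fold, from 47.3 and 42.6 to 13.4 and 11.6 CPM, while its activator DBF4 fell 2.21-fold, from 57.7 and 56.7 to 24.1 and 27.8 CPM. Ordered by log2 fold change, DBF4 was the first gene outside the rule for a fall of more than 2-fold (-1.14, SE 0.08, edgeR glmTreat adjusted p = 0.102). In the same order POLD2 was the last inside it (-1.30, SE 0.05, edgeR glmTreat adjusted p = 3.39e-04). By adjusted p the last inside was CCNE1 (edgeR glmTreat adjusted p = 0.00254). Of the paralogous cyclins E, which activate CDK2, CCNE2 fell 4.97-fold, from 88.9 and 84.9 to 16.3 and 18.6 CPM, and CCNE1 fell 2.62-fold, from 39.9 and 40.6 to 16.8 and 13.9 CPM. There were 2.23 and 2.09 CCNE2 reads per CCNE1 read under DMSO and 0.975 and 1.34 under CU-T12-9. Exons of CCNE2 overlap INTS8 on the opposite strand over 1629 bases, which makes its level uncertain.

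CDC45 and GINS complete the active helicase, and their median fall was the largest among the role groups with at least 3 genes (median log2 fold change -2.47 over 5 genes). GINS2 fell most of all 51 genes, from 75.1 and 75.7 CPM under DMSO to 11.2 and 11.4 CPM under CU-T12-9, a 6.67-fold fall (log2 fold change -2.74, SE 0.07; edgeR adjusted p = 3.91e-09). CDC45 had 89.7 and 82.1 CPM under DMSO and 14.1 and 11.7 CPM under CU-T12-9, and its log2 fold change of -2.73 (SE 0.09) did not differ from that of GINS2 beyond its error. The same held for CDC6, at -2.72 (SE 0.06). The order of these genes changed with the library left out. Without the first CU-T12-9 library the log2 fold change was -2.84 for CDC45 and -2.69 for GINS2. GINS1 fell 5.52-fold and GINS3 3.78-fold. GINS4 fell least of the complex, 3.23-fold, from 64.6 and 66.4 to 21 and 19.6 CPM. The 4 GINS proteins form a complex with equal numbers of each, and reads of GINS2 per GINS4 read went from 1.16 and 1.14 to 0.532 and 0.583.

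**Figure D3:**
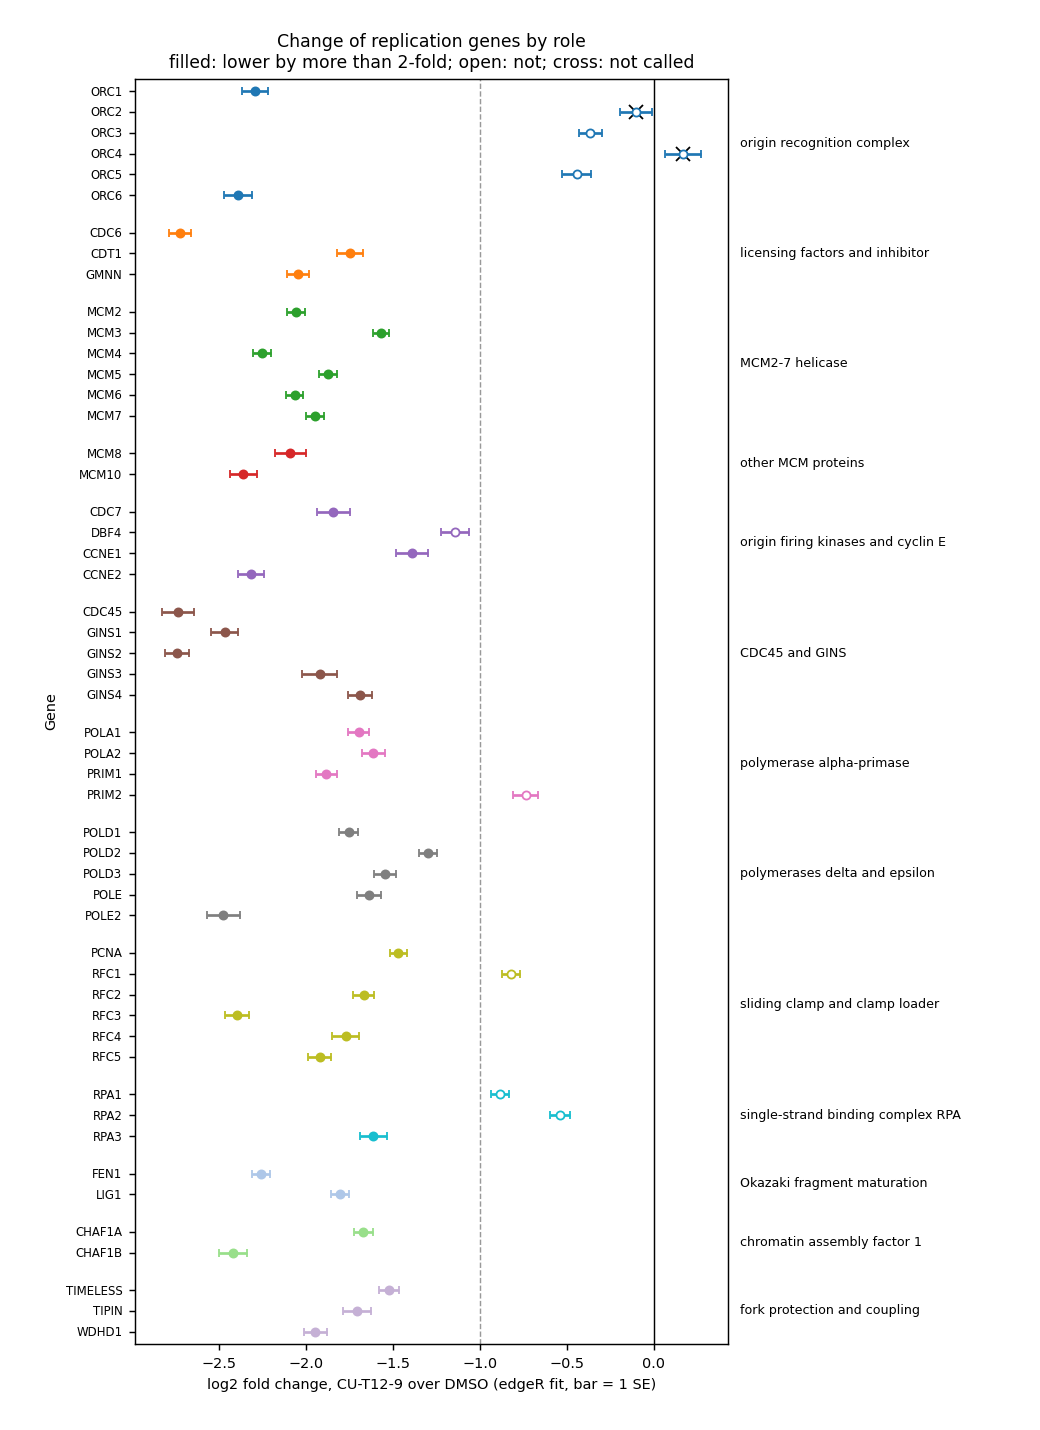
Log2 fold change of CU-T12-9 over DMSO from the edgeR fit (bars, 1 SE) for the 51 replication genes by role. Filled points are the 42 genes lower by more than 2-fold, open points the other 9, and crosses mark ORC2 and ORC4, which were not called. The dashed line marks a 2-fold fall.

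Polymerase alpha-primase, which lays the RNA-DNA primers, had 3 subunits with falls of similar size. POLA1, the catalytic subunit, fell 3.24-fold, POLA2 3.06-fold and the primase catalytic subunit gene PRIM1 3.69-fold, the last from 83 and 83.7 to 22.8 and 22.4 CPM. The large primase subunit gene PRIM2 fell 1.67-fold, from 35.3 and 36.4 to 21.5 and 21.5 CPM (log2 fold change -0.74, SE 0.07; edgeR adjusted p = 1.64e-05). Near-identical partial copies of PRIM2 exist in the genome, so its level is uncertain. PRIM1 reads per PRIM2 read went from 2.35 and 2.3 to 1.06 and 1.04.

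All 5 genes of polymerases delta and epsilon among the 51 fell by more than 2-fold. POLE2, the second subunit of the leading-strand polymerase, fell most, 5.55-fold, from 37.4 and 36.5 to 7.14 and 6.14 CPM, whereas the catalytic subunit gene POLE fell 3.11-fold, from 162 and 156 to 54.5 and 47.9 CPM. For the lagging-strand polymerase, the catalytic subunit gene POLD1 fell 3.37-fold, POLD3 2.92-fold and POLD2 least, 2.46-fold, from 168 and 164 to 66.8 and 68.1 CPM. POLD4, the fourth subunit of polymerase delta, is not among the 51 genes and went the other way, from 14.7 and 14.8 to 33.2 and 31.5 CPM (log2 fold change 1.13, SE 0.08; edgeR adjusted p = 1.83e-06). The polymerase epsilon subunit genes POLE3 and POLE4, also not among the 51, had log2 fold changes of -1.22 (SE 0.05) and -0.98 (SE 0.07). POLE3 met the rule for a fall of more than 2-fold and POLE4 did not.

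PCNA, the sliding clamp, had the highest level per length of the machinery, 336 ± 3.26 CPM per kb under DMSO and 121 ± 2.89 under CU-T12-9 (SD, n = 2). It fell 2.77-fold, from 453 and 459 to 168 and 162 CPM (log2 fold change -1.47, SE 0.05; edgeR adjusted p = 1.76e-08). The small clamp loader subunits fell more: RFC2 3.18-fold, RFC4 3.41-fold, RFC5 3.79-fold and RFC3 5.26-fold, the last from 67.4 and 68.2 to 12.6 and 13.2 CPM. RFC1, the large subunit, fell 1.77-fold, from 122 and 121 to 69.4 and 68.1 CPM. The log2 fold change of RFC3 minus that of RFC1 was -1.57 (SE 0.09). PCNA, RFC3 and RFC5 have named pseudogenes that could share reads with them.

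RPA, the trimer that coats exposed single strands in replication and repair, fell less than most of the machinery. RPA2 had 156 and 158 CPM under DMSO and 113 and 104 CPM under CU-T12-9, a 1.45-fold fall (log2 fold change -0.54, SE 0.06; edgeR adjusted p = 2.89e-05). The large subunit gene RPA1 fell 1.85-fold, from 254 and 260 to 137 and 142 CPM. RPA3, the smallest subunit, fell 3.06-fold, from 40.7 and 42.1 to 13.1 and 14 CPM, so that RPA3 reads per RPA2 read went from 0.26 and 0.266 to 0.116 and 0.135. RPA2 has 3 named pseudogenes.

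The enzymes of lagging-strand joining both fell. FEN1, the flap nuclease, had 255 and 255 CPM under DMSO and 53.1 and 53.7 CPM under CU-T12-9, a 4.78-fold fall (log2 fold change -2.26, SE 0.05; edgeR adjusted p = 2.57e-09). LIG1, the ligase that seals the nick, fell 3.49-fold, from 202 and 199 to 58.2 and 56.5 CPM.

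Chromatin assembly factor 1 places histones behind the fork. Its p60 subunit gene CHAF1B fell 5.35-fold, from 48.1 and 48 to 9.37 and 8.57 CPM, and its p150 subunit gene CHAF1A 3.18-fold, from 150 and 147 to 45.6 and 48 CPM. Its remaining subunit RBBP4, shared with other chromatin complexes and not among the 51 genes, had 343 ± 9.87 CPM under DMSO and 313 ± 14.1 CPM under CU-T12-9 (SD, n = 2) and was not called (log2 fold change -0.13, SE 0.05; edgeR adjusted p = 0.052).

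The 3 genes of fork protection and coupling fell by similar factors. WDHD1, which links the helicase to polymerase alpha, fell 3.85-fold, from 79 and 82.2 to 20.3 and 21.6 CPM. TIPIN fell 3.26-fold, from 33.9 and 34.2 to 10.6 and 10.3 CPM. Its partner TIMELESS fell least, 2.87-fold, from 151 and 149 to 54.1 and 50.3 CPM.

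The 9 genes that did not meet the rule for a fall of more than 2-fold were thus ORC2, ORC3, ORC4, ORC5, DBF4, PRIM2, RFC1, RPA1 and RPA2. Of the 22 replication genes whose exons overlap another gene in GENCODE 29, on either strand, 4 are among these 9 (ORC2, ORC4, DBF4 and RPA1).

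Over all 14018 tested genes 4652 (33.2%) were called lower and 4483 higher, which is the background for the lists that follow. A companion list of 39 other origin and fork genes, not members, had 31 genes lower and 3 higher, with a median log2 fold change of -1.30. The largest falls were in DSCC1, a subunit of an alternative clamp loader (-2.48, SE 0.07), CDC25A, the phosphatase that activates CDK2 (-2.41, SE 0.07), and TICRR, which helps load CDC45 (-2.41, SE 0.08). The highest values were those of POLD4 and of the acetyltransferase gene KAT7 (0.19, SE 0.06), whose call DESeq2 did not make. Without the first or without the second DMSO library POLD4 was the single higher call of this list. Of 12 specialised DNA polymerase genes, which act in repair and lesion bypass, 5 were lower and 3 higher, with a median of -0.11. These shares were not far from those over all tested genes. The end-joining polymerase gene POLQ had a log2 fold change of -1.92 (SE 0.08), MAD2L2 -0.67 (SE 0.06) and PRIMPOL -0.52 (SE 0.11), and POLL and POLI rose by 0.45 (SE 0.08) and 0.25 (SE 0.09). With DESeq2 3 were lower and 1, POLL, was higher, and POLL was also the single higher call with library totals only or without the first DMSO, the second DMSO or the first CU-T12-9 library. Without the second DMSO library 3 were lower.

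The mitotic and nucleotide synthesis lists give the nearest comparisons. All 24 mitotic genes were lower, with a median of -1.94, CDK1, BIRC5 and CENPA falling most (-2.44, -2.35 and -2.33) and PTTG1 and INCENP least (-1.06 and -1.45). Of 25 nucleotide synthesis genes 23 were lower and 1 higher, with a median of -0.99. RRM2 and TK1, which supply DNA precursors, had log2 fold changes of -2.53 and -2.31, and RRM2B, the p53-inducible subunit of ribonucleotide reductase, rose by 0.28. CTPS2, at 0.12, was not called. Differences between these lists were not tested.

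**Figure D4:**
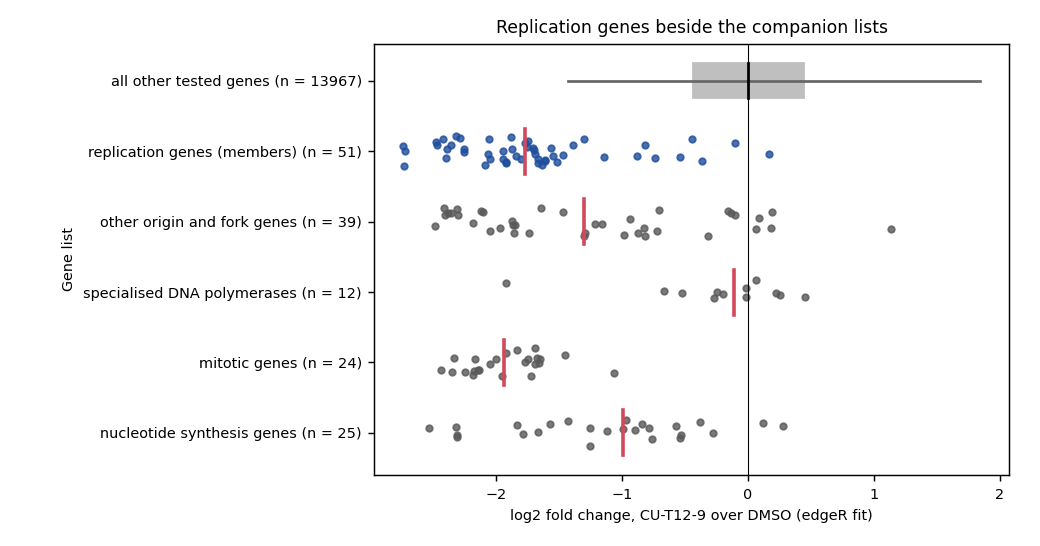
Log2 fold change (edgeR fit) of the 51 replication genes (blue), of the members of 4 companion lists (grey points, red bar at the median), and of all other tested genes (box, quartiles and median; line, 5th to 95th percentile). The replication and mitotic medians, -1.77 and -1.94, lie close together, and the specialised polymerases centre near 0.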

How the data were processed

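Gene-level read counts were deposited by the authors for 4 libraries. The tools named per the submitters' processing notes are FastQC 0.11.7, TopHat2 and featureCounts 1.5.2, with the build GRCh37. Annotation, strand setting and treatment of multi-mapping reads: not given in the sources used here, so 22 members whose exons overlap another gene and 7 with named pseudogenes are uncertain. Counts were fitted across all genes kept by filterByExpr with edgeR 4.0.16 (R 4.3.3): TMM, group as the only term, quasi-likelihood F-test, Benjamini-Hochberg adjustment, threshold 0.05, and glmTreat against a fold of 2. The SE of a gene is its absolute log2 fold change over √F. For a difference between a pair of genes it is the square root of their summed squared SEs, which takes their errors as independent. Log2 CPM correlated across genes at 0.996 and 0.994 within the groups. The chi-square per degree of freedom for equal proportions in a pair of libraries was 2.42 for DMSO and 6.99 for CU-T12-9. The CU-T12-9 libraries thus differed more from each other, while the fit shares its dispersion between the groups.

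The members, lists and tests were chosen with earlier results of these data known. All members could be named. The largest and smallest change in each role group, and each member not called, are given by library, and from each companion list the 3 lowest and 2 highest values, except 1 gene that is not reported here. KIAA0101 stood for PCLAF, by RefSeq synonym. Alternatives were other scalings, filters, DESeq2 1.42.0, limma-voom (limma 3.58.1), a replicate block and leaving out each library. Tested on simulated data for this comparison (14018 genes, 50 changed at each fold), the edgeR step made 136 calls, 5 of them false. It found 14% of the 1.2-fold changes, 70% of those of 1.5-fold, 84% of those of 2-fold and 94% of those of 4-fold. Promoter windows are RefSeq's, matched by symbol on a build other than that of the counts, and no position was carried between builds. The planned protein motif search was not run.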

Additional observations from a re-analysis of the deposited data

How the results depend on the processing

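All 49 falls kept their direction and their call under the 12 alternative fits, and 42 genes met the rule for a fall of more than 2-fold in each, except 43 without the second CU-T12-9 library. Against a fold of 1.5 the number was 46. The exceptions were ORC2 and ORC4. Leaving out a single library gave 49 to 50 members lower and 0 to 1 higher, the 1 being ORC4 without the first CU-T12-9 library. ORC2 had -0.20 without the same library and changed sign to 0.017 without the second CU-T12-9 library (edgeR adjusted p = 0.854). Over the 12 alternatives and the reported fit, adjusted p was 1.97e-04 to 0.882 for ORC4 and 0.0168 to 0.854 for ORC2. DESeq2 found 485 genes lower by more than 2-fold, against 778 by edgeR. The scalings moved the median of all genes by at most 0.03. The title numbers gave no sign of pairing (correlation of same-numbered deviations across genes 0.00795), and with a replicate block 49 members were lower and the counts over all genes were 4655 lower and 4488 higher, against 4652 and 4483. The edgeR step found 14% of simulated 1.2-fold changes, but with 50 genes changed at each fold, far fewer than were called here. That share thus does not say whether a difference like that of ORC4, 1.12-fold in mean CPM, would be missed. KAT7, higher by 1.14-fold, was called by edgeR (edgeR adjusted p = 0.0175), though not by DESeq2. The CU-T12-9 libraries of ORC4 disagreed, at 20.6 and 25.1 CPM.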
